A study of Rattus norvegicus with 6 samples.

Results

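Cholesterol and fatty acids are built from the same precursor, acetyl-CoA, along separate chains of enzymes, and 38 genes of these chains were followed in cultured cells of rat dorsal root ganglia. The 38 genes were picked by name as members of these pathways, with earlier results of these data known. Each was found on 1 row of a table of 16551 mRNA genes. By role, 5 regulate the pathway, 17 make sterols, 3 move sterols, 10 make or remodel fatty acids, and 3 activate or use fatty acids. The 17 sterol synthesis genes are called the sterol arm and the 10 fatty acid synthesis genes the fatty acid arm.

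Dorsal root ganglia are the clusters of sensory neurons and supporting cells beside the spinal cord. Ganglia of lumbar and sacral levels were taken from rats, dissociated with trypsin and cultured. The control group (3 samples) was kept in DMEM, a standard culture medium whose glucose level the labels do not give, and the high-glucose group (3 samples, prefix DM in the labels) in medium with glucose at 45 mmol/L, both for 48 h before RNA extraction. The labels do not spell out that DM stands for high glucose, and it was read so. No strain, age, genotype or osmotic control is given, the number of animals is not stated, and the word duplicates in the labels leaves unsaid whether the samples came from separate cultures. The p-values therefore cover only sample-to-sample spread, possibly of technical origin. The total RNA was sequenced to between 28780612 and 33108451 reads per sample over the genes of the mRNA table.

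As background, the transcription factor SREBP-2, made from Srebf2, drives genes of cholesterol synthesis, and SREBP-1, made from Srebf1, drives those of fatty acid synthesis. Both are held in the endoplasmic reticulum by the escort protein SCAP and the INSIG proteins while sterols are plentiful, and are released to be cut and sent to the nucleus when sterols run low. In the peripheral nervous system Schwann cells make much of the cholesterol and lipid of myelin themselves.

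The labelled cell type was checked against markers of the cells a ganglion can hold. Levels are given in CPM, read counts divided by the scaled library size, turned back from the deposited log2 values. Counts of markers higher or lower are calls of the test given below, which called 24.9% of all genes higher and 25.5% lower. Neuronal transcripts were scarce: 10 neuron markers summed to between 107 and 112 CPM in control and between 61.9 and 64.0 CPM in high glucose. Of these, 5 averaged under 1 CPM, and 8 were lower in high glucose. Uchl1 was the largest part of that sum (mean 58.8 CPM in control and 48.0 CPM in high glucose). The median neuron marker fell further than the sum (log2 fold change -2.14). All 7 repair Schwann cell markers (non-myelinating state included) were lower and summed to 864 to 896 CPM in control against 495 to 534 CPM. Of 8 myelinating Schwann cell markers 5 were lower and 1 higher (187 to 197 CPM against 136 to 146 CPM). Of 6 mural and smooth muscle markers 5 were lower (8320 to 8420 CPM against 3510 to 3600 CPM), and of 6 measured fibroblast markers 4 were higher and 2 lower (38400 to 40700 CPM against 30900 to 33400 CPM). The median fibroblast marker was higher (log2 fold change 0.80), against the direction of that sum, most of which is Col1a1 (mean 34810 CPM in control and 26170 CPM in high glucose), whose change was 0.00 after quantile normalization. Of 5 satellite glia markers 2 were higher and 2 lower (98.6 to 101 CPM against 138 to 149 CPM). The 5 measured endothelial markers summed to under 17 CPM in every sample and none passed the test. Of 6 measured macrophage markers, which summed to under 13 CPM in every sample, 1 was higher and 2 were lower. Of 5 measured adipocyte markers 1 was higher and 1 lower, and they summed to between 3.33 and 4.53 CPM in every sample. In such bulk samples, fewer cells of a type and less RNA per cell cannot be told apart, and the part of these shifts in the values below was not tested.

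Sterol synthesis genes and fatty acid synthesis genes both changed in high glucose, but mostly by small amounts and not in 1 direction within either arm. With limma and a threshold of 0.05 on the adjusted p, 17 of the 38 genes rose in high glucose, 12 fell and 9 did not pass, so that 29 were called. The same test called 50.5% of all 16551 genes, 24.9% higher and 25.5% lower. That total includes scarce genes, whose log2 values averaged below 0, whereas all 38 genes averaged above 0. With the scarce genes left out, 7779 of 12247 genes were called, 3740 higher and 4039 lower, a larger share than over all genes. Shares and medians quoted for all genes, here and elsewhere, include the scarce ones, so they are not matched to the 38 for expression level. The groups did not overlap in 31 of the 38 genes, against 57.6% of all genes. At least 1.5-fold changes were scarce: 3 of the 38 passed the test with such a change, Lpin1, Ebp and Tm7sf2, against 16.0% of all genes. The median size of the log2 fold change was 0.22 over the 38 genes and 0.28 over all genes. Log2 fold changes are high glucose minus control throughout. The value after ± is the standard error (SE) of that difference in the limma fit, with 3 samples per group. The fit moderates each gene's variance with that of the other genes.

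The size of small changes depends on how the samples are scaled. Without the scaling factors of the deposited values, the median log2 fold change of all genes moved by 0.11, from 0.01 to 0.13, and the calls over all genes split into 5932 higher and 2847 lower in place of 4126 and 4228. On that scale 23 of the 38 genes were called higher and 7 lower. Where a gene's direction or call changed with the scaling, this is said beside it.

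**Figure D1:**
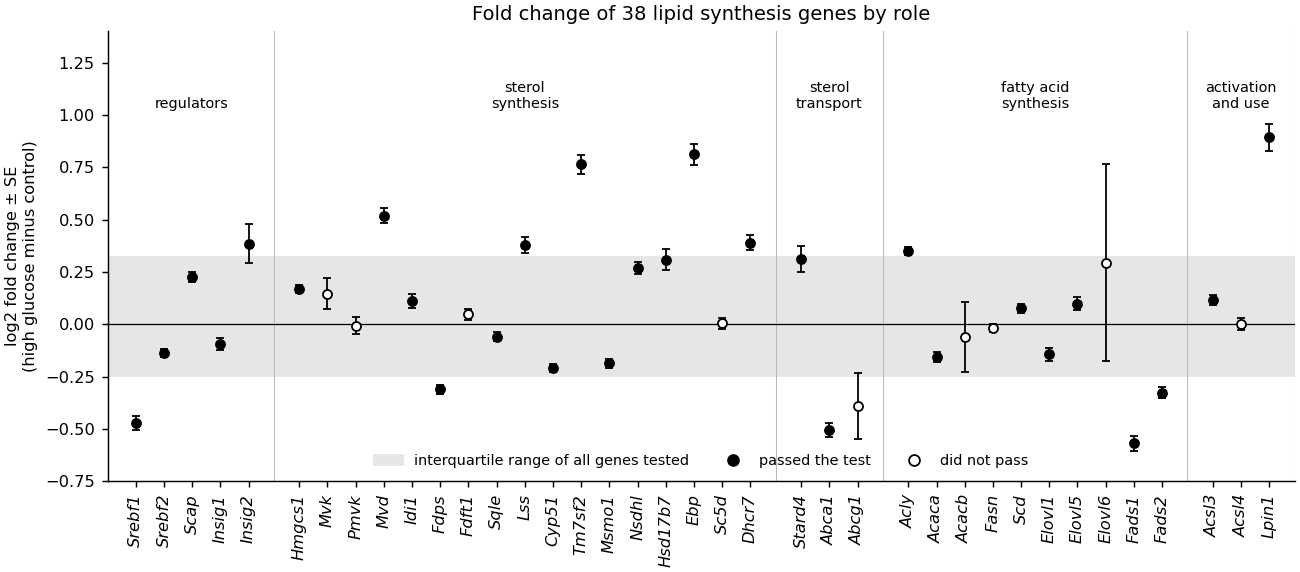
Log2 fold change (high glucose minus control) with its SE for the 38 genes, grouped by role, from 3 samples per group; filled points passed the test, open points did not, and the grey band is the interquartile range of all genes tested (-0.25 to 0.32). Lpin1, Ebp and Tm7sf2 stand highest at 0.89, 0.81 and 0.76, and Fads1 lowest at -0.57.

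Among the 5 regulators, Srebf1 and Srebf2 fell, Scap and Insig2 rose, and Insig1 was slightly lower. Srebf1 (ENSRNOG00000003463) stood at 68.0, 69.2 and 71.8 CPM in control and at 48.8, 51.2 and 50.8 CPM in high glucose. It was lower in every high-glucose sample, by 1.39-fold (log2 fold change -0.47 ± 0.03, adjusted p = 9.6e-08). Srebf2 (ENSRNOG00000007400) fell less, from 289.1, 287.7 and 289.0 CPM to 263.6, 261.0 and 261.6 CPM. The groups were apart by more than their spread, but the change was only 1.10-fold (-0.14 ± 0.02, adjusted p = 4.57e-05). It was -0.03 with an adjusted p of 0.305 without the scaling factors. Scap, whose product carries the SREBPs out of the endoplasmic reticulum, rose from 107.4, 108.6 and 106.9 CPM to 124.3, 126.3 and 127.0 CPM (0.23 ± 0.03, adjusted p = 5.05e-06).

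The pair of INSIG genes, whose products retain SCAP, went opposite ways. Insig2 had 5.67, 6.62 and 6.11 CPM in control and 8.38, 7.74 and 7.84 CPM in high glucose, without overlap. It rose 1.31-fold (0.38 ± 0.09, adjusted p = 0.00352) on 541 reads in control and 760 in high glucose. Insig1, itself a classic SREBP target, had 129.8, 126.3 and 128.5 CPM against 119.7, 123.6 and 116.8 CPM. The lowest control sample lay close to the highest high-glucose sample, and the change was 1.07-fold (-0.10 ± 0.03, adjusted p = 0.0117). Its sign turned to 0.02 without the scaling factors (adjusted p = 0.636), and it did not pass after quantile normalization (-0.07, adjusted p = 0.0636).

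In the sterol arm, 9 of 17 genes rose (52.9%, against 24.9% of all genes), 4 fell (23.5%, against 25.5%) and 4 did not pass. The median log2 fold change was 0.15 against 0.01 for all genes. The genes that rose lay at every stretch of the pathway, and the 2 largest rises were in the stretch from lanosterol to cholesterol. The 4 that fell were Fdps, Sqle, Cyp51 and Msmo1.

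**Figure D2:**
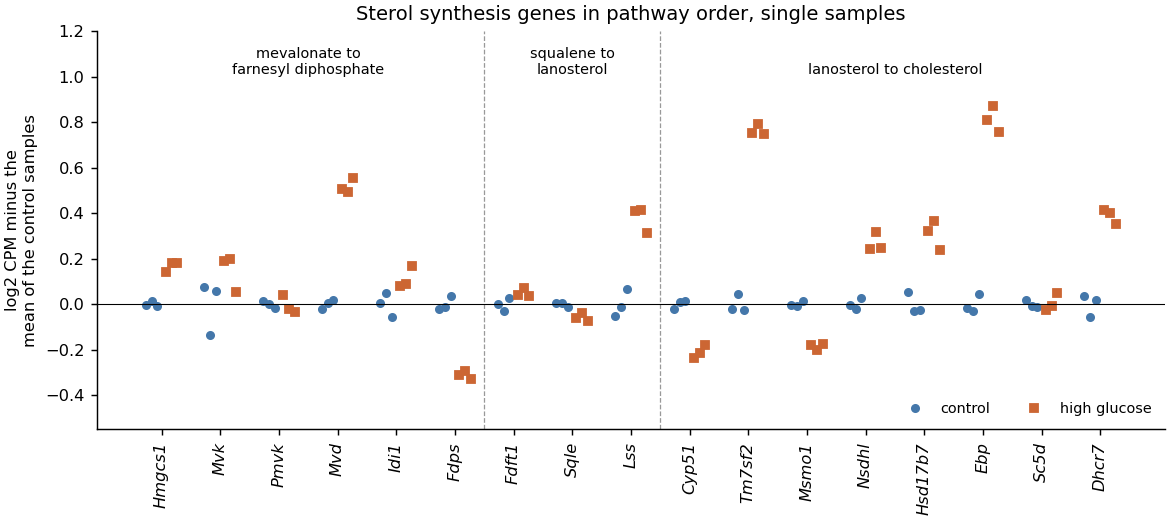
Log2 CPM of the 17 sterol synthesis genes in each sample, minus the mean of the 3 control samples, in the order of the pathway (circles control, squares high glucose). Among others, the high-glucose samples of Mvd, Lss, Tm7sf2, Nsdhl, Hsd17b7, Ebp and Dhcr7 lie above all control samples, and those of Fdps, Cyp51 and Msmo1 below.

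From acetyl-CoA units to farnesyl diphosphate, 3 of 6 genes rose and 1 fell. Hmgcs1, which makes hydroxymethylglutaryl-CoA, had 371, 375 and 369 CPM in control and 409.5, 422 and 421 CPM in high glucose. All high-glucose samples were above all control samples (0.17 ± 0.02, adjusted p = 9.79e-06). Mvd, the decarboxylase that makes isopentenyl diphosphate, rose 1.43-fold from 36.6, 37.2 and 37.5 CPM to 52.6, 52.3 and 54.5 CPM (0.52 ± 0.04, adjusted p = 4.58e-08). Its groups were far apart beside their spread. Idi1, the isomerase of the next step, had 139.5, 144.0 and 133.6 CPM against 146.9, 147.8 and 156.2 CPM (0.11 ± 0.03, adjusted p = 0.0111). That call was lost without control 3 (adjusted p = 0.0561) or high glucose 3 (adjusted p = 0.0507).

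Fdps, the synthase of farnesyl diphosphate, the branch point towards sterols and prenyl groups, went the other way. It had 380.1, 381.6 and 394.8 CPM in control and 311.1, 314.7 and 307.1 CPM in high glucose. The fall was 1.24-fold (-0.31 ± 0.02, adjusted p = 4.9e-08). The kinases Mvk and Pmvk did not pass. Their log2 fold changes had 95% confidence intervals of -0.02 to 0.31 for Mvk and of -0.10 to 0.09 for Pmvk. On the scale without the factors both were higher, at 0.26 (adjusted p = 0.0111) and 0.11 (adjusted p = 0.049), and Pmvk also changed sign after quantile normalization (0.01).

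From farnesyl diphosphate to lanosterol, the first ring-shaped sterol, Lss alone of 3 genes rose. Lss, lanosterol synthase, had 73.2, 75.2 and 79.4 CPM in control and 100.8, 101.0 and 94.3 CPM in high glucose. The groups did not overlap, and the rise was 1.30-fold (0.38 ± 0.04, adjusted p = 1.73e-06). Fdft1, squalene synthase, did not pass (0.05 ± 0.03, 95% confidence interval -0.01 to 0.11), although its high-glucose samples (117.9, 120.3 and 117.4 CPM) all lay above the control samples (114.6, 112.4 and 116.8 CPM). It did pass after quantile normalization (0.08, adjusted p = 0.0325) and without the scaling factors (0.16, adjusted p = 0.000214). Sqle, squalene epoxidase, was at the threshold, with 161.5, 161.3 and 159.2 CPM against 153.9, 156.3 and 152.5 CPM (-0.06 ± 0.02, adjusted p = 0.0492). Its adjusted p was 0.12 without control 1, 0.129 without control 2, 0.061 without control 3, 0.113 without high glucose 1 and 0.117 without high glucose 3, and its sign turned to 0.06 without the scaling factors (adjusted p = 0.073). After quantile normalization it was -0.02 and did not pass (adjusted p = 0.465).

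In the stretch from lanosterol to cholesterol, 5 of 8 genes rose and 2 fell. Ebp (ENSRNOG00000004903), the sterol isomerase, had 18.4, 18.2 and 19.2 CPM in control and 32.7, 34.0 and 31.4 CPM in high glucose. It rose 1.76-fold (0.81 ± 0.05, adjusted p = 1.16e-08). Tm7sf2 (ENSRNOG00000020989), a sterol reductase that follows the demethylation of lanosterol, had 17.9, 18.7 and 17.8 CPM against 30.6, 31.4 and 30.4 CPM. Its rise was 1.70-fold (0.76 ± 0.05, adjusted p = 1.39e-08). For both genes the gap between groups was many times the spread within them, and the sizes stayed between 0.74 and 0.93 over all alternatives and both genes.

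Dhcr7, the reductase of the last step to cholesterol, had 51.0, 47.9 and 50.4 CPM in control and 66.2, 65.8 and 63.5 CPM in high glucose. It rose 1.31-fold (0.39 ± 0.04, adjusted p = 8.36e-07). Hsd17b7, a ketosterol reductase, rose from 24.1, 22.8 and 22.9 CPM to 29.0, 29.96 and 27.4 CPM (0.31 ± 0.05, adjusted p = 0.000157). Nsdhl, a dehydrogenase that helps to remove methyl groups from the ring, rose from 88.0, 87.0 and 89.9 CPM to 104.4, 109.9 and 104.6 CPM (0.27 ± 0.03, adjusted p = 5.65e-06). In all 3 genes every high-glucose sample was above every control sample.

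Cyp51 and Msmo1, which act early in this stretch, were lower. The lanosterol demethylase Cyp51 had 573, 585 and 588 CPM in control and 494.5, 502 and 515 CPM in high glucose (-0.21 ± 0.02, adjusted p = 1.44e-06). After quantile normalization it kept its sign but shrank to -0.05 and did not pass (adjusted p = 0.0507). Msmo1, the methylsterol oxidase, fell from 247.3, 246.2 and 249.9 CPM to 219.0, 215.4 and 219.1 CPM (-0.19 ± 0.02, adjusted p = 5.86e-06). Sc5d, a sterol desaturase, did not pass (0.01 ± 0.03, 95% confidence interval -0.05 to 0.06). Its value was -0.02 after median centring, 0.07 after quantile normalization (adjusted p = 0.0157) and 0.12 without the scaling factors (adjusted p = 0.000684). So the genes acting on one chain of intermediates moved both ways, with Cyp51 and Msmo1 lower beside Tm7sf2, Nsdhl, Hsd17b7, Ebp and Dhcr7 higher.

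Because the sterol arm moved in opposite directions, the promoters of its genes were set side by side. Sequences are from RefSeq on build GRCr8, from 250 bases before to 50 after the annotated start, and 30 of the 38 genes matched by symbol, on 31 entries, since Srebf1 has 2. Pmvk, Fdft1, Sqle, Stard4, Abcg1, Acaca, Fasn and Elovl6 had no entry. The NF-Y box CCAAT, bound by a factor that acts with SREBPs at many sterol genes, was searched on both strands. It was found in 12 of 14 sterol arm promoters, in 4 of 7 fatty acid arm promoters and in 37.5% of all 33469 promoters. At least 2 boxes were found in 10 of the 14 and in 1 of the 7, against 11.2% of all promoters. Of the sterol genes that rose 8 of 9 had a box, and of those that fell 2 of 3, so the box was seen with either direction.

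The sterol regulatory element was searched as TCACNCCAC on both strands and was in none of the 31 entries and in 1.12% of all promoters. The shorter form TCACNCCA, chosen after that result was seen, overlaps it and was in 2 of the 31 entries, Srebf2 and Msmo1, and in 3.89% of all promoters. These are matches of letters in 1 window, not tested sites. The promoters below are those of the 2 sterol genes with the largest rises, of 2 that fell, of Srebf2 and, from the fatty acid arm, of Fads1. Each runs 5′ to 3′ on its gene's strand, and capitals mark CCAAT, its reverse complement ATTGG or the shorter sterol element.
Ebp, chrX:16971212-16971511, plus strand: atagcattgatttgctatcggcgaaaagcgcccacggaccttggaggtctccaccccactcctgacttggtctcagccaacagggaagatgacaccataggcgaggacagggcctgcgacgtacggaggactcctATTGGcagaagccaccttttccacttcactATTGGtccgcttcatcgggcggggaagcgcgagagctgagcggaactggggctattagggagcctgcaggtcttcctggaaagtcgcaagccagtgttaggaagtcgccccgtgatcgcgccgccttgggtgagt
Tm7sf2, chr1:212789492-212789791, minus strand: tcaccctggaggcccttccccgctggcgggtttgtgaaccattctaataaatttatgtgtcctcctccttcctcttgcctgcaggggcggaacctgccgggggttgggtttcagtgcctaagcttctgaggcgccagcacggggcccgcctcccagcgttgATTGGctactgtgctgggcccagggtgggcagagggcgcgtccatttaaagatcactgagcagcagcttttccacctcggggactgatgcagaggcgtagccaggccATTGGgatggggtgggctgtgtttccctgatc
Fdps, chr2:176804767-176805066, minus strand: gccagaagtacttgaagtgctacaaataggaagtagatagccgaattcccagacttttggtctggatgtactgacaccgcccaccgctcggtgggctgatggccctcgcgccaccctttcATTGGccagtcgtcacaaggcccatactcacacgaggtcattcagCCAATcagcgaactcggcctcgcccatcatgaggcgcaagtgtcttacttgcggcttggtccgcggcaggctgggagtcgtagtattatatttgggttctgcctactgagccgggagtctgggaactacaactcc
Msmo1, chr16:29746863-29747162, plus strand: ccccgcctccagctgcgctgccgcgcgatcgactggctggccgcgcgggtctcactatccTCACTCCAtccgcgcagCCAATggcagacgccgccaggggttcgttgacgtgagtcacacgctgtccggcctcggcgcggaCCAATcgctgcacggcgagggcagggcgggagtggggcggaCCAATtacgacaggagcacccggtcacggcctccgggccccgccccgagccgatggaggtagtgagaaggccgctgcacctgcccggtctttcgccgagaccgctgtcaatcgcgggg
Srebf2, chr7:115543057-115543356, plus strand: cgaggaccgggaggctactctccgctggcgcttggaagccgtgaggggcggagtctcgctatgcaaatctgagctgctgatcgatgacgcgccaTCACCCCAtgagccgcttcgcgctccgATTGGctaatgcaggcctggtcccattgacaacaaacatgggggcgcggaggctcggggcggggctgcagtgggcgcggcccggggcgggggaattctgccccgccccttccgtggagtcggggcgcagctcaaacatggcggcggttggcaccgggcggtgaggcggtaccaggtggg
Fads1, chr1:216252442-216252741, plus strand: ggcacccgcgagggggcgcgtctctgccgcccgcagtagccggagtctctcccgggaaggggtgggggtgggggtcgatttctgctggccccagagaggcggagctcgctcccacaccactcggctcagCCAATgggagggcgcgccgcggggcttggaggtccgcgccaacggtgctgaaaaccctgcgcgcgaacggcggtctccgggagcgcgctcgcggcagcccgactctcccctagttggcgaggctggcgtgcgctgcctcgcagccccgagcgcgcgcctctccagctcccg

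Ebp carries 2 ATTGG boxes close together upstream of its start, Tm7sf2 has 1 upstream and 1 just past its start, and Fdps has 1 in each orientation. Msmo1 has 3 CCAAT boxes in the same orientation, and Fads1 has 1. Ebp and Tm7sf2 rose and Fdps and Msmo1 fell with at least 2 boxes each. Cyp51, which also fell and is not shown here, had no box in its window.

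Of the 3 sterol transport genes, the exporter Abca1 fell and the transfer protein Stard4 rose. Abca1 (ENSRNOG00000018126), which loads cholesterol onto lipid-poor apolipoproteins, had 74.2, 71.9 and 73.8 CPM in control and 51.2, 50.7 and 53.2 CPM in high glucose. All high-glucose samples were well below the control samples, by 1.42-fold (-0.50 ± 0.03, adjusted p = 2.72e-08). Stard4, which carries cholesterol between membranes inside the cell and is a known sterol-responsive gene, rose from 13.7, 13.1 and 12.7 CPM to 16.6, 16.7 and 15.8 CPM (0.31 ± 0.06, adjusted p = 0.000729). Abcg1, an exporter to mature lipoproteins, had 2.93, 3.19 and 2.66 CPM against 2.05, 2.54 and 2.13 CPM. Its groups did not overlap, but it missed the threshold (-0.39 ± 0.16, adjusted p = 0.0552) on 257 reads against 212. It passed in 7 of 15 alternatives, among them quantile normalization (-0.51, adjusted p = 0.0159), median centring (-0.41, adjusted p = 0.0424) and the fit without high glucose 2 (adjusted p = 0.0379).

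**Figure D3:**
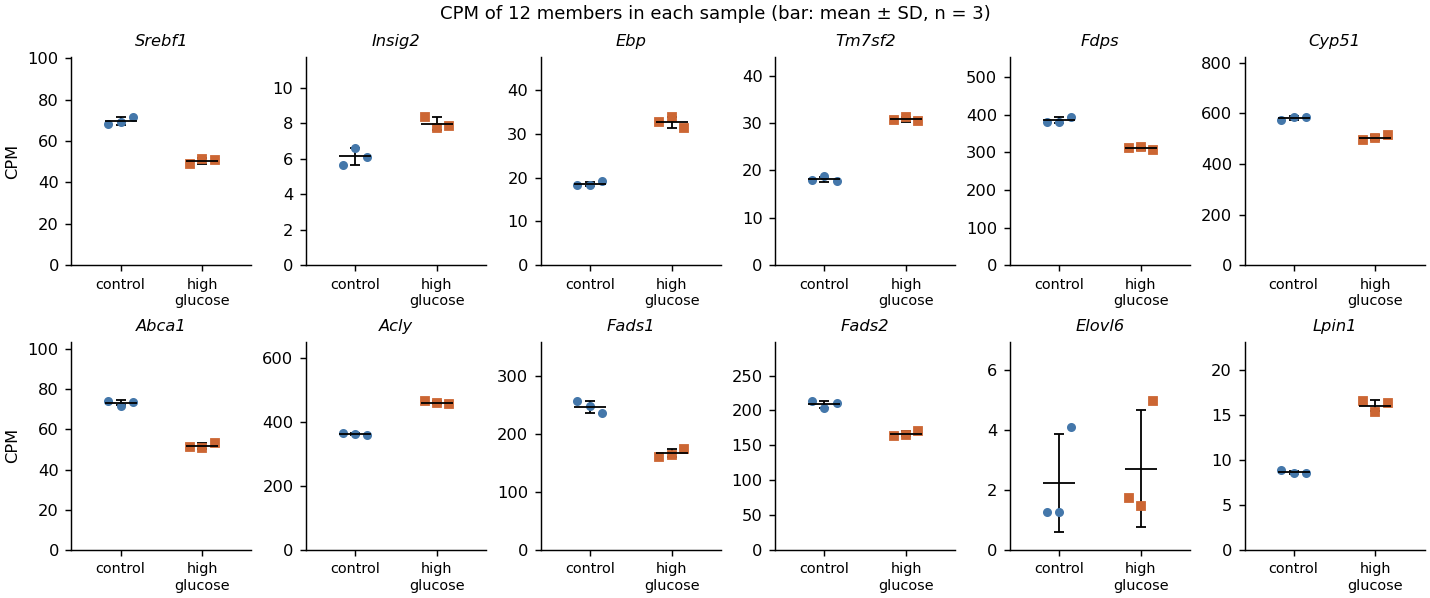
CPM of 12 of the genes in each sample (points; circles control, squares high glucose), with the mean and SD of 3 samples, on axes that start at 0. The groups do not overlap in 11 of these 12, which were picked for display, against 57.6% of all genes. In Elovl6 the third sample of each group stands at 4.11 and 4.97 CPM, above the other 4 samples.

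In the fatty acid arm, 3 of 10 genes rose (30.0%, against 24.9% of all genes), 4 fell (40.0%, against 25.5%) and 3 did not pass. The median log2 fold change was -0.04. The desaturases of polyunsaturated fatty acids fell and the enzyme that supplies acetyl-CoA rose. Acly, which splits citrate into acetyl-CoA for both arms, had 365, 362 and 358 CPM in control and 465, 458 and 456 CPM in high glucose. It rose 1.27-fold (0.35 ± 0.02, adjusted p = 4.15e-09), with a narrow spread in both groups.

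The next enzymes of the arm changed little. Acaca, the cytosolic acetyl-CoA carboxylase that commits carbon to fatty acids, had 155.4, 155.0 and 160.1 CPM against 143.9, 140.9 and 137.7 CPM (-0.16 ± 0.03, adjusted p = 0.000221). Without the scaling factors its value was -0.04 and did not pass (adjusted p = 0.225). Fasn, the fatty acid synthase itself, had 538, 526 and 528 CPM in control and 513, 535 and 526 CPM in high glucose, which overlap. Its log2 fold change was -0.02 ± 0.02 with a 95% confidence interval of -0.06 to 0.03, and it was 0.13 after quantile normalization (adjusted p = 0.000186) and 0.10 without the scaling factors (adjusted p = 0.00114), so its direction depends on the scaling. Acacb, the mitochondrial carboxylase, was scarce, at 1.80 to 2.08 CPM over all samples (-0.06 ± 0.17, 95% confidence interval -0.42 to 0.30), and was at 0.05 without the scaling factors.

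Fads1 (ENSRNOG00000020480) and Fads2, the desaturases that make long polyunsaturated fatty acids, had the largest falls of the arm. Fads1 had 257.0, 247.9 and 236.3 CPM in control and 161.0, 164.5 and 174.4 CPM in high glucose. The groups were far apart, and the fall was 1.48-fold (-0.57 ± 0.03, adjusted p = 1.23e-08). Fads2 fell 1.25-fold, from 213.4, 203.2 and 210.1 CPM to 163.8, 165.0 and 170.8 CPM (-0.33 ± 0.03, adjusted p = 2.13e-07). Fads3, which is not among the 38, is the neighbour of Fads2 in the RefSeq gene order, as Fads2 is of Fads1 among protein-coding genes, and it fell too (-0.62 ± 0.03, adjusted p = 5.2e-10).

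Scd, the desaturase that makes oleate, was only 1.05-fold higher, at 256.5, 255.1 and 252.1 CPM against 268.4, 266.9 and 269.8 CPM (0.08 ± 0.02, adjusted p = 0.00628). It did not pass after median centring (adjusted p = 0.0678). Scd2, from the list of other fatty acid synthesis genes, was more abundant (mean 2251 CPM in control and 2099 CPM in high glucose). Unlike Scd it was lower (-0.101 ± 0.015, adjusted p = 9.52e-05). The sign of Scd2 turned after quantile normalization (0.086, adjusted p = 0.000227). Without the scaling factors Scd2 was at 0.012 and did not pass (adjusted p = 0.493). The elongase Elovl1, which acts on very long chains, was lower (-0.14 ± 0.03, adjusted p = 0.00189), with 78.9, 75.9 and 80.2 CPM against 71.9, 70.9 and 70.2 CPM. Without the scaling factors it was at -0.03 (adjusted p = 0.498). Elovl5, which elongates polyunsaturated chains, had 67.6, 65.5 and 65.4 CPM in control and 69.0, 72.7 and 71.0 CPM in high glucose. It was higher (0.10 ± 0.03, adjusted p = 0.021), and that call was lost without control 2 (adjusted p = 0.0694), control 3 (0.0645) or high glucose 2 (0.081) and after median centring (0.0819). The changes of Scd and Elovl5 were smaller than the 0.11 by which the scaling factors moved the median of all genes.

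Elovl6, which elongates palmitate to stearate, varied more within groups than between them. It had 1.28, 1.28 and 4.11 CPM in control and 1.72, 1.45 and 4.97 CPM in high glucose. In each group the sample numbered 3 was high and the other two low. The group difference did not pass (0.29 ± 0.47, 95% confidence interval -0.72 to 1.31), was 0.86 without control 3 and turned to -0.26 without high glucose 3.

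Of the genes that activate or use fatty acids, Lpin1 had the largest rise of all 38. Lpin1 (ENSRNOG00000004377), a phosphatidate phosphatase on the way to triglycerides and a transcriptional co-regulator, had 8.80, 8.56 and 8.51 CPM in control and 16.5, 15.3 and 16.3 CPM in high glucose. The groups were far apart, and the rise was 1.86-fold (0.89 ± 0.07, adjusted p = 9.62e-08). Acsl3, an acyl-CoA synthetase of the endoplasmic reticulum and lipid droplets, rose from 116.6, 117.4 and 118.4 CPM to 125.9, 127.6 and 127.9 CPM (0.11 ± 0.02, adjusted p = 0.00147). Acsl4, which prefers arachidonate, did not pass (0.00 ± 0.03, 95% confidence interval -0.06 to 0.06), was at -0.02 after median centring and was higher without the scaling factors (0.11, adjusted p = 0.00464).

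The sterol arm was then set against the fatty acid arm. The median log2 fold change was 0.15 in the sterol arm, 0.18 above the -0.04 of the fatty acid arm, and log2 fold changes ran from -0.31 to 0.81 in the sterol arm and from -0.57 to 0.35 in the fatty acid arm. The ranges thus overlapped widely, and 13 of 17 and 7 of 10 genes passed the test in either direction, against 50.5% of all genes. A scaling that moves all genes alike leaves the difference of the medians at 0.18, and after quantile normalization it was 0.14. Without high glucose 3 the median of the fatty acid arm was -0.11 and the difference 0.28. The fatty acid median also moved by over 1.5-fold without control 2 (-0.06) and without control 3 (-0.02). Since the genes were chosen with earlier results of these data known, the difference between arms is a description without a test.

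In single samples, the arm level was taken as the mean over its genes of the log2 value minus that gene's mean over the 6 samples. The sterol arm stood at -0.090, -0.105 and -0.083 in control and at 0.09, 0.11 and 0.08 in high glucose. Control and high-glucose samples did not overlap. The fatty acid arm stood at -0.02, -0.05 and 0.14 in control and at -0.07, -0.10 and 0.10 in high glucose, where the samples numbered 3 were the highest of each group. Without Elovl6 it stood at 0.06, 0.02 and 0.05 in control and at -0.05, -0.05 and -0.03 in high glucose, and the groups no longer overlapped. That order depends on the scaling: without the scaling factors the same 9 genes stood at -0.001, -0.039 and -0.007 in control and at 0.010, 0.020 and 0.016 in high glucose, now with high glucose above. On that scale the sterol arm still lay below 0 in all control samples (-0.163 to -0.135) and above 0 in all high-glucose samples (0.121 to 0.175). The sterol level minus the level of the full fatty acid arm was -0.072, -0.052 and -0.222 in control. In high glucose it was 0.165, 0.203 and -0.022, so high glucose 3 lay close to control 2. Without Elovl6, left out after its values were seen, the difference was between -0.149 and -0.125 in control and between 0.106 and 0.155 in high glucose.

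**Figure D4:**
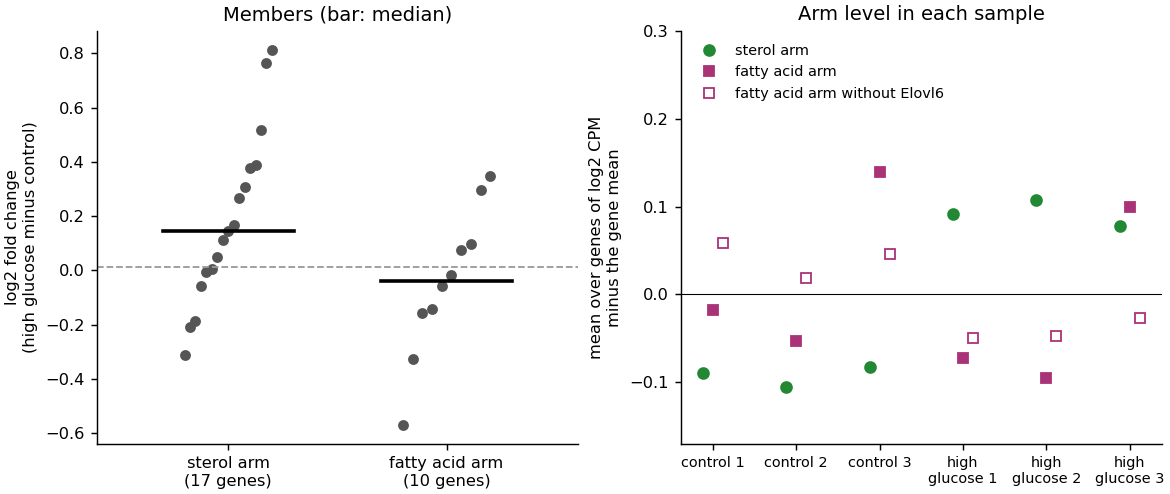
Left, log2 fold change of each gene of the sterol arm (17) and the fatty acid arm (10), with the median as a bar (0.15 and -0.04, the latter 0.076 without the scaling factors) and the median of all genes as a dashed line. Right, the arm level in each sample, the mean over genes of log2 CPM minus the gene mean, with the fatty acid arm also without Elovl6: the sterol arm lies below 0 in the 3 control samples and above 0 in the 3 high-glucose samples. The order of the groups in the fatty acid arm without Elovl6 reverses without the scaling factors.

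A list of 22 other genes of the sterol pathway was measured in full, and of these 5 rose (22.7%, against 24.9% of all genes) and 7 fell (31.8%, against 25.5%), shares near those of all genes, and their median log2 fold change was 0.02. Vldlr, a lipoprotein receptor, had 175.0, 178.4 and 184.9 CPM in control and 109.6, 111.4 and 108.1 CPM in high glucose, a fall of 1.64-fold (-0.71 ± 0.03, adjusted p = 1.14e-10). Mylip, the ubiquitin ligase that degrades lipoprotein receptors, rose 1.92-fold, from 17.4, 16.7 and 15.4 CPM to 31.3, 32.4 and 31.4 CPM (0.94 ± 0.05, adjusted p = 7.29e-09). In both genes the groups were far apart. Ggps1, which makes geranylgeranyl diphosphate from the product of Fdps, rose (0.28 ± 0.04), as did Tmem97, a sterol-regulated membrane protein (0.28 ± 0.04). Osbp, an oxysterol-binding protein, and Soat1, which esterifies cholesterol, fell (-0.29 ± 0.03 and -0.23 ± 0.03).

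Among 27 other genes of fatty acid synthesis and use, 7 rose (25.9%, against 24.9% of all genes) and 11 fell (40.7%, against 25.5%), with a median log2 fold change of -0.01. Acss2, which makes acetyl-CoA from acetate, had 50.6, 47.7 and 49.7 CPM in control and 125.7, 119.2 and 121.1 CPM in high glucose. Its rise of 2.47-fold (1.31 ± 0.03, adjusted p = 2.23e-12) was larger than that of any of the 38 genes. Me1, the malic enzyme that supplies NADPH, rose (0.40 ± 0.03, adjusted p = 2.52e-08), and so did Lpin2, a relative of Lpin1 (0.18 ± 0.03, adjusted p = 0.000401). Acsl1, an acyl-CoA synthetase, fell 2.02-fold, from 45.8, 47.3 and 43.99 CPM to 22.1, 23.0 and 22.7 CPM (-1.02 ± 0.04, adjusted p = 3.11e-10). Mid1ip1, which promotes the polymerisation of acetyl-CoA carboxylase, fell as well (-0.61 ± 0.03, adjusted p = 9.74e-10).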

How the data were processed

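The authors deposited 1 table of mRNA genes, whose log2 values for the 6 samples are named as voom-normalized. The deposited values are log2 CPM, with 0.5 added to each read count before division by a scaled library size. Reads could be worked back from them: 100% of the values came within 0.01 of a whole number. Scaling factors did not overlap between groups, at 0.959 to 0.964 for control and 1.03 to 1.05 for high glucose. The tools named, per the submitters' processing notes, were HISAT2 2.1.0, featureCounts 1.6.0 and fastp 0.19.4, with build Rnor_6.0 and without roles or settings. The annotation and the strand of counting were not given in the sources used here. A growth protocol in the labels mentions paraformaldehyde fixation and does not say whether it applied to the sequenced cells. The table of lncRNA rows holds none of the 38 genes and was not used.

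All 16551 mRNA genes entered one limma fit (version 3.58.1, under R 4.3.3) of group alone, with eBayes moderation and its trend option. Tests were two-sided, p-values were adjusted by Benjamini-Hochberg across the table, and the threshold was 0.05. Folds are ratios of fitted log2 means. Tables were made in Python 3.11.15 with pandas 2.3.3, and figures with matplotlib 3.10.9. The fit was tested on simulated data. The genes and lists were chosen with earlier results of these data known. The text accounts for all 38 genes. Of each other pathway list it names up to 3 genes per direction, those with the smallest p among genes that passed. Fads3, Mid1ip1 and the rest come from that rule, and Scd2 was added outside it, beside Scd. Replicate numbers were not taken as pairs, and the labels do not say whether they mark any. Alternatives were 3 scalings, another offset, 2 filters, 2 variance models, a replicate block and leaving out each sample.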

Additional observations from a re-analysis of the deposited data

How the results depend on the processing

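Of the 29 genes that passed the test, 20 kept their direction and their call in all 15 alternatives; Srebf2, Insig1, Idi1, Sqle, Cyp51, Acaca, Scd, Elovl1 and Elovl5 lost the call in at least 1. Without the scaling factors 7 genes were called lower in place of 12, and 2 in place of 4 in the fatty acid arm. In the sterol arm, 2 genes were called lower after quantile normalization in place of 4. In the fatty acid arm, 1 gene was called higher in place of 3 after median centring and also with 1 prior variance for all genes. The fatty acid median turned from -0.04 to 0.004 after quantile normalization and to 0.076 without the scaling factors, and the sterol median moved from 0.15 to 0.26 without the factors and to 0.12 after median centring. The cause of these shifts was not tested, other than that leaving out the scaling factors moves every gene alike. Signs turned without the factors for Insig1 (0.018), Pmvk (0.108), Sqle (0.055), Acacb (0.055) and Fasn (0.097), after quantile normalization for Pmvk (0.012) and Fasn (0.13), and after median centring for Sc5d (-0.02) and Acsl4 (-0.02).

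When each sample was left out in turn, the log2 fold change ran from -0.029 to 0.009 for Pmvk, from -0.018 to 0.021 for Sc5d, from -0.26 to 0.86 for Elovl6 and from -0.023 to 0.019 for Acsl4. The counts of genes called ran from 15 to 17 higher and from 11 to 13 lower. The fatty acid median ran from -0.113 to -0.019, the sterol median from 0.13 to 0.17 and their difference from 0.15 to 0.28. Over all genes between 7462 and 7793 were called. With a replicate block 8052 genes were called in place of 8354, and among the 38 genes the block ended the call of Sqle (adjusted p = 0.0871) and no other. Deviations of same-numbered samples correlated at -0.09, -0.04 and 0.03 across 12247 genes, so the numbers were not taken as pairs. The arm level of the fatty acid genes without Elovl6, high glucose minus control, turned from -0.083 to 0.031 without the scaling factors, an alternative chosen after seeing the data. Counting error is largest for Acacb, Elovl6 and Abcg1, with 172 to 265 reads per group.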

Other observations

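Genes that burn fatty acids moved in the same comparison. Of 14 genes of fatty acid oxidation, 8 rose and 3 fell. Their median log2 fold change was 0.18 against 0.01 for all genes, and 50.5% of all genes passed the test. Cpt1a, the gatekeeper of fatty acid entry into mitochondria, had 9.02, 8.72 and 7.49 CPM in control and 21.4, 19.9 and 20.2 CPM in high glucose, a rise of 2.44-fold (1.29 ± 0.08, adjusted p = 1.12e-08). All high-glucose samples were far above the control samples. Acadvl, the dehydrogenase of very long chains, rose (0.49 ± 0.03, adjusted p = 6.75e-08), and so did Etfdh, which passes electrons to the respiratory chain (0.41 ± 0.05, adjusted p = 7.45e-06). Acadl, the dehydrogenase of long chains, and Hadhb, a subunit of the trifunctional protein, fell by the same amount (-0.51 ± 0.03 for each), and Etfb, a subunit of the electron carrier, fell more (-0.73 ± 0.06, adjusted p = 1.08e-07).

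The level of Elovl6 followed the sample number rather than the group. Over the 12247 genes whose mean log2 value was 0 or above, 3 had both samples numbered 3 at least 1 log2 unit above the other 4: Elovl6, Hprt1 and LOC100910882, which were singled out after their values were seen. The same rule found 0 genes for the samples numbered 1 and 1 for those numbered 2. In the other direction, with both samples at least 1 log2 unit below the other 4, it found 0, 2 and 1 genes for numbers 1, 2 and 3. Hprt1, a purine salvage enzyme often used as a reference gene, had 0.38, 0.50 and 13.8 CPM in control and 0.72, 0.78 and 3.97 CPM in high glucose. The labels do not say what the numbers stand for.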
